A study of Mus musculus with 12 samples.

Results

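The 40 genes described here encode proteins of the mitotic spindle and of cell division. They were followed in mammary tumours of mice through every array probe whose RefSeq accession maps to one of their symbols. All 40 were on the array, with 57 probes. For 28 of the 40 a probe rose above background often enough to be tested, among 13347 genes in all. The study set tumours from Rarb -/- mice (KO) against tumours from Rarb +/+ mice (WT), where Rarb encodes retinoic acid receptor beta, a nuclear receptor for retinoids. All animals had the FVB background and carried the MMTV-Wnt1 transgene, a model in which mammary epithelium makes the Wnt1 growth factor under the MMTV promoter. Epithelium and stroma of 6 tumours were cut apart by laser capture microdissection, which gave 3 arrays each for KO and WT epithelium and for KO and WT stroma. The KO allele is a germline change, so both compartments carry it, and ages are not given in the labels. The labels do not state whether the tumours are from different mice, and p-values here reflect only how these samples vary.

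A dividing cell makes the mRNAs of these proteins late in its cycle, and their level in a tissue is widely used as a measure of how many cells are close to mitosis. The kinases Cdk1, Plk1, Aurora A and Aurora B start and order mitosis, cyclins A and B switch Cdk1 on, and kinetochore proteins and motors attach chromosomes to spindle microtubules. The spindle checkpoint then holds back the ligase that destroys cyclin B and securin until attachment is complete, and a last group of proteins cuts the cell in 2. Many of these genes share promoter elements, the CHR (cell cycle genes homology region) and the CCAAT box, through which DREAM and MuvB complexes and NF-Y time their transcription.

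Promoters are shown for genes on which the results below turn, since shared elements are what the genes have in common outside the arrays. RefSeq windows of 250 bases before to 50 bases after the annotated start (GRCm38.p6) were at hand for 35 of the 40 genes, as 38 promoters. Ccna2, Aurkb, Tpx2, Incenp and Kif20a had no entry in the table used. The stretches below run from 120 bases before to 30 bases after the start, 5′ to 3′ on the gene's strand, with CHR letters (TTTGAA or TTCGAA) and CCAAT letters, on either strand, in capitals. Aurka lies at chr2:172370541-172370690 (minus strand), Bub1 at chr2:127831830-127831979 (minus strand), Plk1 at chr7:122159315-122159464 (plus strand) and Cenpe at chr3:135212443-135212592 (plus strand). Spc25 lies at chr2:69206184-69206333 (minus strand), Ect2 at chr3:27153825-27153974 (minus strand), the downstream one of its 2 annotated starts, and Pttg1 at chr11:43425952-43426101 (minus strand).
Aurka: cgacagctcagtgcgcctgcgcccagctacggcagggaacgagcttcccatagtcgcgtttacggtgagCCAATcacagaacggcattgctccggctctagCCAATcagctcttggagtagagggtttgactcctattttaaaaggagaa
Bub1: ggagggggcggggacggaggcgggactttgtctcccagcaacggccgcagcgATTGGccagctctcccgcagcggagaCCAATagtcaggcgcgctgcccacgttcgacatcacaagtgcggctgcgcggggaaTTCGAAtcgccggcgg
Plk1: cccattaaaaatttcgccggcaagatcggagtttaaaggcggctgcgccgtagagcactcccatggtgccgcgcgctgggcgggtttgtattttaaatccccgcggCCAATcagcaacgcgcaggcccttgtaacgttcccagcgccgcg
Cenpe: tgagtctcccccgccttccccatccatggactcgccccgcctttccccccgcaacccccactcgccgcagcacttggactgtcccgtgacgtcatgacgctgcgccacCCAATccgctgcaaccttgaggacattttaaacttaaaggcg
Spc25: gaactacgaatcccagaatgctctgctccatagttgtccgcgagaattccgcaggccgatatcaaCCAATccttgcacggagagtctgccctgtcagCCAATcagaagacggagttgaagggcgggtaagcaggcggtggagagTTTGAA
Ect2: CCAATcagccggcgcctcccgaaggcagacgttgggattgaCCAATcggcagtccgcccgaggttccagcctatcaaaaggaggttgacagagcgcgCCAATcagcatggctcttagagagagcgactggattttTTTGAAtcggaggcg
Pttg1: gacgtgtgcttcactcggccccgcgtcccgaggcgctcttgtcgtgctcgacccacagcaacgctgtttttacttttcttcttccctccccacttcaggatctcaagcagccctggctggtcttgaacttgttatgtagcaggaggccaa
Aurka, Bub1 and Spc25 each carry 2 CCAAT boxes upstream of the start, Ect2 carries 3 upstream of the start shown, and Plk1 and Cenpe carry 1. Counted from the other start of Ect2, the nearest of these boxes begins at base 2 of the transcript. The CHR letters of Aurka and Plk1 begin at bases 33 and 31 of the transcript, beyond the stretch shown. Pttg1 holds neither motif in its whole window, and Cenpe holds no CHR.

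Over the whole window, the CHR letters were found in 31 of 38 promoters of the 40 genes (81.6%), against 14.3% of the 13412 promoters of the genes tested and 19.2% of all 32851 promoters. A CCAAT box was found in 30 of the 38 (78.9%), against 37.0% and 37.4%, and both motifs together in 28 (73.7%), against 5.79% and 7.52%. The E2F letters TTCCCGC or TTGGCGC were in 5 of the 38 (13.2%), against 10.6% and 6.81%. For 91 of 111 listed division genes outside the 40, CHR letters were in 48 of 101 promoters (47.5%) and a CCAAT box in 59 (58.4%). Both were in 29 (28.7%) and E2F letters in 27 (26.7%). For 34 of 42 listed S-phase genes, E2F letters were in 21 of 40 promoters (52.5%), CHR letters in 9 of 40 (22.5%) and a CCAAT box in 21 of 40 (52.5%). All motifs were searched on both strands, and TTGGCGC read on the other strand can share bases with a CCAAT box. A match is a description of letters, not a measured binding site.

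Each array carried Cy3-labelled tumour RNA and a Cy5-labelled universal mouse reference RNA, and every level below is a log2 ratio of tumour sample over that reference. Levels are therefore relative to the reference, which pools other cells, and are not set between genes. Values run in the order of replicates 1, 3 and 4 for KO and 1, 2 and 3 for WT. Between 36.0% and 46.3% of probes on an array had Cy3 well above background, no spot was saturated, and the number of arrays limits the precision. Rarb mRNA differed by -0.04 between KO and WT epithelium (limma adjusted p = 0.994) and by 1.14 between KO and WT stroma (adjusted p = 0.402). No source used here says whether its probe lies in the deleted part, so this checks nothing about the labels.

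The compartments did not separate equally well in both genotypes. The 12 measured luminal markers of 14 averaged 0.88 to 1.97 on KO stroma arrays and 3.52 to 4.22 on KO epithelium arrays, but 2.29 to 3.17 on WT stroma arrays and 2.89 to 3.57 on WT epithelium arrays. The 10 measured fibroblast markers of 11 averaged 3.25 to 3.59 in KO stroma and -2.66 to 0.20 in KO epithelium, against 0.58 to 2.11 in WT stroma and -1.53 to 1.51 in WT epithelium. The transgene's product followed them, with Wnt1 at 3.24 ± 0.49 in KO stroma (adjusted p = 0.000860 against WT stroma, limma), 6.77 ± 0.37 in WT stroma, 7.26 ± 0.27 in KO epithelium and 7.35 ± 0.28 in WT epithelium (SD, n = 3 each). In luminal and Wnt1 transcripts the WT samples labelled stroma thus stood nearer to their epithelium than KO stroma did. Within WT tumours 11 of 12 luminal markers were still lower in stroma (median -0.74), 8 of them in all 3 tumours, against 14.9% of all genes. All 10 fibroblast and all 8 macrophage markers were higher there on average, and none of these markers was called. Basal markers (9 of 9) averaged 1.83 to 3.20 in KO stroma, 3.46 to 3.85 in WT stroma, 2.68 to 3.92 in KO epithelium and 1.98 to 4.34 in WT epithelium. Lymphoid markers (7 of 9) averaged 4.91 on WT stroma replicate 2 and at most 1.26 on any other array. In such bulk samples fewer cells of a type and less RNA per cell cannot be told apart.

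The level of the division genes moved as a block from array to array. The heat map of the 28 measured genes shows whole columns paler or darker. Over the 12 arrays, 21 of 28 genes had a Pearson correlation above 0.8 with the mean of the other 27, and 14 had one above 0.9, led by the passenger protein gene Cdca8 (0.97). These are descriptions over arrays that share genotype, compartment and slide. Cenpa, which encodes the centromeric histone H3 variant (0.22), and Bub3, which encodes a checkpoint protein (0.39), followed the others least. Both varied little, with SDs of 0.25 and 0.40 over the 12 arrays, and the Cenpa probe was above background on only 6 of them. Bub1 and Bub1b varied about as little (SDs of 0.40 and 0.31) but followed the others more closely (0.74 and 0.60).

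**Figure D1:**
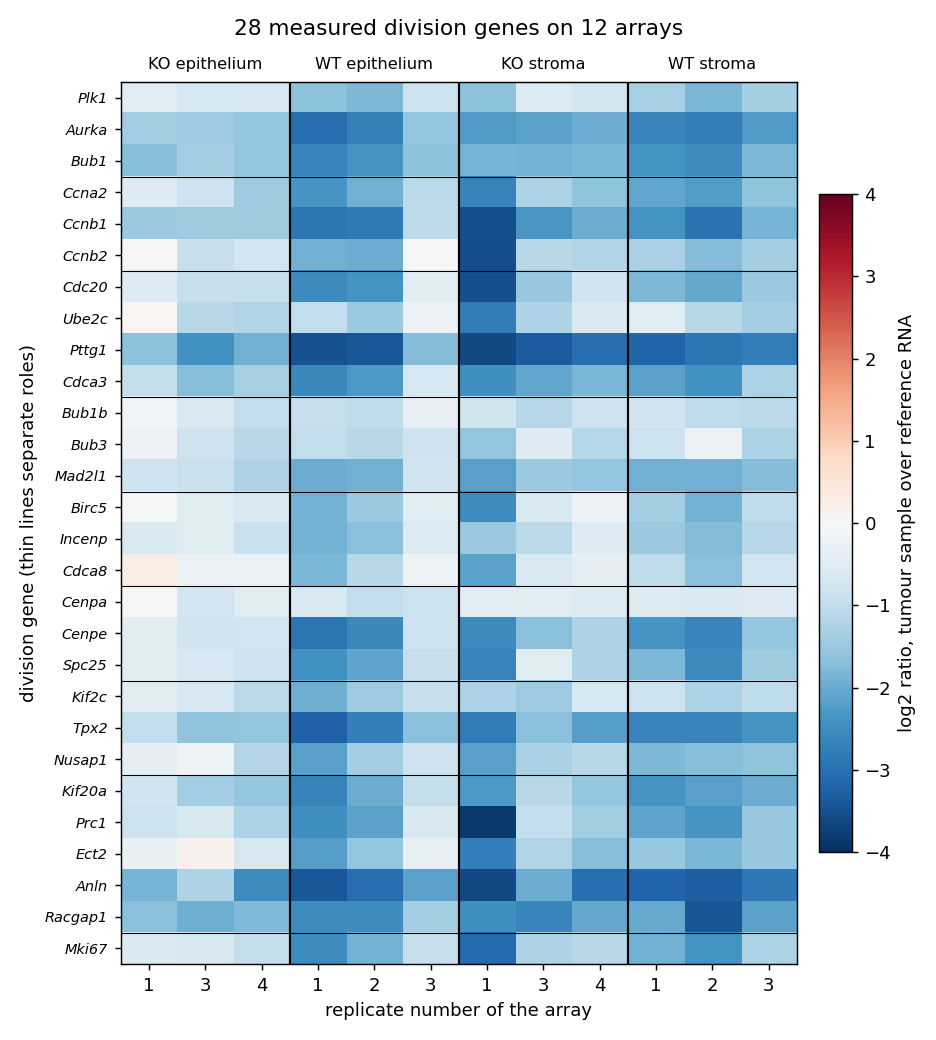
Heat map of log2 ratios (tumour sample over reference RNA, colour scale) for the 28 measured division genes (rows, by role) on the 12 arrays (columns, by group and replicate number). WT epithelium replicates 1 and 2 and KO stroma replicate 1 are darker blue (lower) than the other arrays of their compartment for most genes, while WT epithelium replicate 3 resembles the KO epithelium columns.

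The remaining 12 genes did not pass the filter, which asks for a Cy3 signal well above background in 3 or more of the 12 arrays. Aurkb (Aurora B kinase), Cenpf and Ndc80 (kinetochore proteins), Espl1 (separase, the protease that parts sister chromatids), Ttk (the checkpoint kinase Mps1) and Kif23 (a cytokinesis motor) were not well above background in any tumour sample. Cdk1, Nuf2, Kif11, Kif4, Ckap2 and Top2a, which encode the central mitotic kinase, a kinetochore protein, the spindle motor Eg5, a chromosome motor, a spindle protein and topoisomerase II alpha, reached it on 1 or 2 arrays. The reference RNA gave signal above background on all 12 arrays for Kif11, Kif4, Nuf2 and Top2a, and on none for Aurkb, Cenpf, Ndc80 and Ttk. None of these 12 was tested or enters the counts over 28 genes.

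The first comparison asked whether division genes of the tumour epithelium differed between KO and WT. All 28 measured genes had a higher mean in KO epithelium than in WT epithelium, where 53.8% of all genes tested did and 46.2% were lower. The median difference was 0.83 on the log2 scale, with a range of 0.16 to 1.45, against 0.03 over all genes. The brightest probe stands for a gene, and of 9 genes with a second kept probe 8 had a smaller difference with it, among them Racgap1, whose sign turned (-0.02). None of the 28 passed the test at an adjusted p of 0.05 (limma, Benjamini-Hochberg over 13347 genes), and 0.00749% of all genes did so as higher, which is 1 gene. At an unadjusted p under 0.05 there were 8 of 28, against 8.1% of all genes. A list of 14 cell cycle brakes, described at the end, had 4 of 14. The 8 are not separate observations, since the division genes moved together from array to array. Kif2c, among the 8, met the filter on dim probes only with its KO epithelium arrays. The 3 KO and 3 WT arrays did not overlap for 5 of 28 genes, all higher in KO, against 9.49% of all genes higher and 4.47% lower without overlap.

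The size of these differences and the overlap of the groups depended on how the WT arrays differed from each other. The mean over the 28 genes was -0.67, -0.96 and -1.16 on the KO arrays and -2.24, -1.99 and -0.89 on the WT arrays. WT replicates 1 and 2 both lay below every KO array for 24 of 28 genes. WT replicate 3 lay above the lowest KO array for 22 genes and above the highest for 5, and it also carried 211 spots marked non-uniform, against at most 16 on any other array. The median difference was 1.26 without WT replicate 3, 0.53 without WT replicate 1 and 0.64 without WT replicate 2, with 27 of 28 genes positive in the last case and 28 of 28 in the other 2. With array weights, which gave WT replicate 3 a weight of 0.48, it was 1.04. Median centring in place of loess lowered the median of all genes to -0.17 and that of the 28 to 0.50, with 26 of 28 positive.

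Of the mitotic kinases 3 of 5 were measured, and all were among the 8 with an unadjusted p under 0.05. Aurka encodes Aurora A, which matures centrosomes and builds the spindle poles. Its log2 ratio was -1.39, -1.45 and -1.53 in KO epithelium and -3.01, -2.71 and -1.58 in WT epithelium. All KO arrays stood above all WT arrays, the third of them by a narrow margin, and the difference of 0.97 (SE 0.31, 95% interval 0.28 to 1.67, 1.96-fold) had an adjusted p = 0.611 (limma). Plk1, which drives entry into mitosis and spindle assembly, had -0.44, -0.70 and -0.68 in KO epithelium and -1.65, -1.80 and -0.86 in WT epithelium. Again the groups did not overlap, with a difference of 0.83 (SE 0.32, adjusted p = 0.611, limma). Bub1, a checkpoint kinase at kinetochores, had -1.72, -1.40 and -1.55 in KO epithelium and -2.64, -2.37 and -1.65 in WT epithelium. Here WT replicate 3 lay within the KO range, only 1 of 3 WT arrays was above background, and the difference was 0.66 (SE 0.26, adjusted p = 0.611, limma).

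Cyclins and the genes grouped here with regulators of anaphase showed wider spread. Ccna2 encodes cyclin A2, the partner of Cdk kinases in S phase and early mitosis. It had -0.53, -0.83 and -1.41 in KO epithelium and -2.36, -1.92 and -1.09 in WT epithelium. The groups overlapped through WT replicate 3, and the difference was 0.87 (SE 0.42, adjusted p = 0.638, limma). Pttg1 encodes securin, the inhibitor of separase, and had -1.66, -2.42 and -1.92 in KO epithelium and -3.49, -3.39 and -1.74 in WT epithelium. WT replicate 3 lay among the KO arrays and the difference was 0.87 (SE 0.42, adjusted p = 0.636, limma), or 0.40 with a second probe. The B cyclins Ccnb1 and Ccnb2 differed by 0.81 and 0.75, Cdc20, an activator of the anaphase-promoting complex, by 1.003, Cdca3 by 0.52, and the ubiquitin-conjugating enzyme gene Ube2c by 0.16, the smallest difference of the 28. For each of these 5 genes WT replicate 3 lay above at least 2 of the 3 KO arrays.

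Spindle checkpoint genes had the lowest median of the roles (0.25). Bub1b (BubR1) and Bub3 differed by 0.19 and 0.25, and Mad2l1, which encodes the checkpoint effector Mad2, by 0.58. The 3 measured genes of the chromosomal passenger complex, which corrects wrong attachments, had 0.90 for Birc5 (survivin), 0.70 for Incenp (its scaffold) and 0.97 for Cdca8 (borealin). Second kept probes gave 0.35 for Birc5, 0.58 for Incenp and 0.60 for Cdca8, all below the 0.78 of the second Mad2l1 probe. None of these 6 had groups without overlap, and their adjusted p ran between 0.648 and 0.882 (limma).

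Among centromere and kinetochore genes, Cenpe had the largest difference of the 28. Its product is the motor that carries chromosomes to the spindle equator. The ratio was -0.44, -0.78 and -0.78 in KO epithelium and -2.91, -2.57 and -0.87 in WT epithelium. The groups did not overlap, and the difference was 1.45 (SE 0.51, 95% interval 0.31 to 2.58, 2.73-fold, adjusted p = 0.611, limma). Spc25, a subunit of the Ndc80 complex that holds microtubules, had -0.45, -0.66 and -0.84 in KO epithelium and -2.43, -2.11 and -0.93 in WT epithelium. The groups stood apart here too, by less than 0.1 at their nearest arrays, and the difference was 1.17 (SE 0.54, adjusted p = 0.621, limma). Cenpa differed by 0.41, with its probe above background on 2 of 3 KO and 2 of 3 WT epithelium arrays.

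Of the spindle motor and microtubule genes, Tpx2 encodes the activator of Aurora A on spindle microtubules. It had -0.98, -1.61 and -1.59 in KO epithelium and -3.24, -2.72 and -1.67 in WT epithelium. KO and WT arrays did not overlap, and the difference was 1.15 (SE 0.39, adjusted p = 0.611, limma). Kif2c, a microtubule-depolymerising motor, had -0.42, -0.67 and -1.07 in KO epithelium and -1.95, -1.44 and -0.93 in WT epithelium. Its groups overlapped, its probe was above background on 2 of 3 KO and 1 of 3 WT arrays, and the difference was 0.72 (SE 0.29, adjusted p = 0.611, limma). In stroma the probe was above background on 0 KO arrays and 1 WT array, so Kif2c was tested only through the KO epithelium arrays. Nusap1, which bundles spindle microtubules, had -0.37, -0.19 and -1.16 in KO epithelium and -2.18, -1.40 and -0.81 in WT epithelium. KO replicate 4 lay below WT replicate 3, and the difference was 0.89 (SE 0.39, adjusted p = 0.611, limma).

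The cytokinesis genes were led by Ect2, which encodes the exchange factor that switches on RhoA at the cleavage site. It had -0.30, 0.17 and -0.66 in KO epithelium and -2.21, -1.57 and -0.32 in WT epithelium. WT replicate 3 reached the KO range, and the difference was 1.10 (SE 0.48, adjusted p = 0.611, limma). Anln encodes anillin, a scaffold of the contractile ring, and had -1.86, -1.23 and -2.52 in KO epithelium and -3.39, -3.06 and -2.13 in WT epithelium. These groups overlapped as well, with a difference of 0.99 (SE 0.46, adjusted p = 0.624, limma). The motor gene Kif20a, the midzone bundler Prc1 and the RhoA regulator Racgap1 differed by 0.63, 0.82 and 0.33, the last with -0.02 from its second probe. Mki67, whose protein Ki-67 is the usual stain for cycling cells, differed by 1.04 (SE 0.54, adjusted p = 0.648, limma), or by 0.45 with a second probe that was above background on all 12 arrays.

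**Figure D2:**
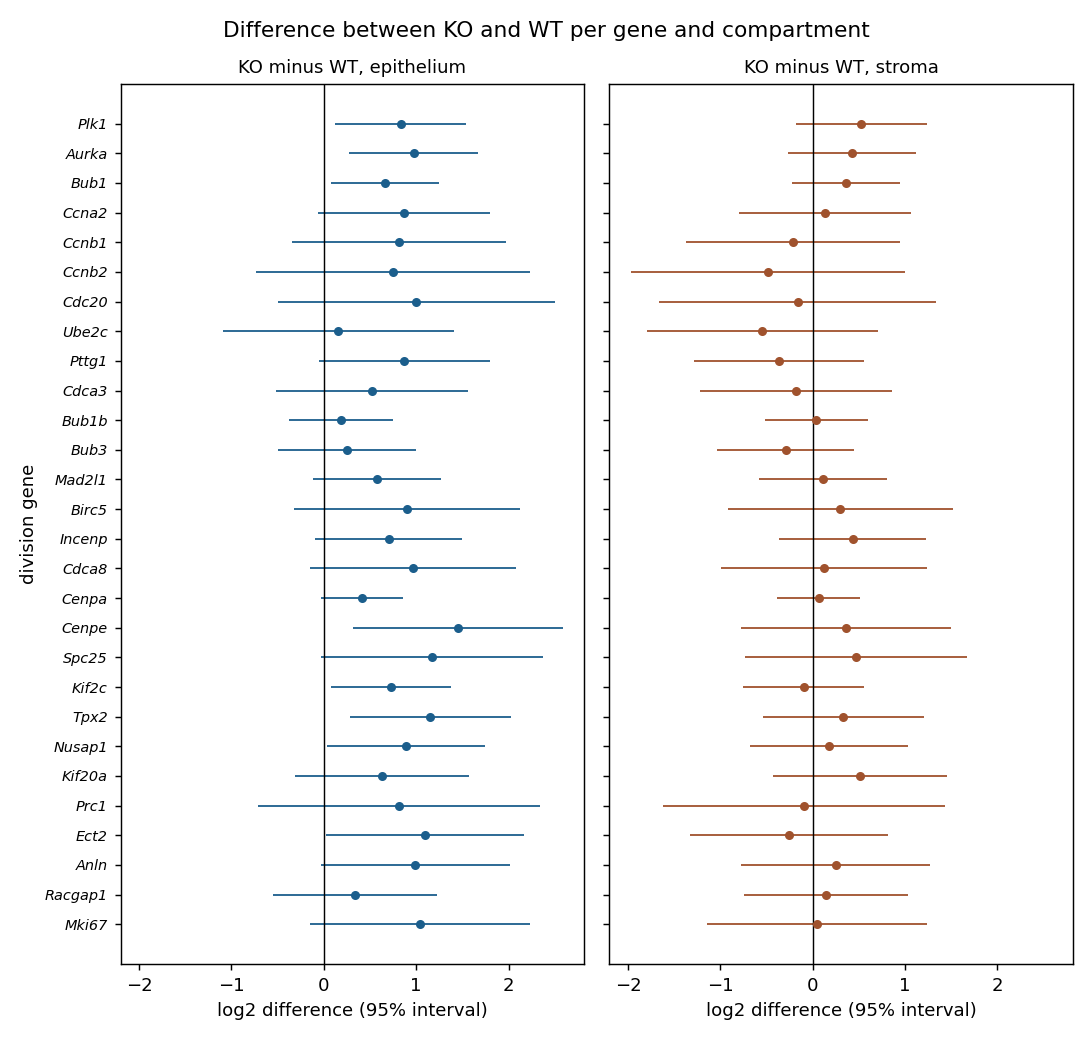
Log2 difference between KO and WT (x axis, KO minus WT) for each of the 28 division genes (y axis) in epithelium (left) and stroma (right). Points are limma estimates from 3 arrays a group and bars are 95% intervals. In epithelium all 28 points lie right of 0 and 8 intervals exclude it, while in stroma the points scatter around 0 and every interval includes it.

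Division genes outside the 40 were read from a list chosen with earlier results of these data known. Of 111 listed, 84 were measured, 75 were positive in KO epithelium, with a median of 0.42, and none was called. Condensin and cohesin genes stood highest within it by p, with 0.63 for the cohesin gene Smc3 (-0.37 ± 0.03 in KO epithelium and -0.99 ± 0.14 in WT epithelium, SD, n = 3 each, adjusted p = 0.525, limma) and 1.14 for the condensin gene Ncapd2 (adjusted p = 0.585). Of 42 S-phase genes 37 were measured and 34 were positive, with a median of 0.49 and none called. The replication helicase genes Mcm4 and Mcm3 had 0.95 and 0.91 (adjusted p = 0.611 for both).

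Cell type markers also differed in this comparison, though none was called and several lists overlapped between KO and WT arrays. The luminal list averaged 3.52 to 4.22 on KO and 2.89 to 3.57 on WT epithelium arrays. The 9 measured endothelial markers of 10 averaged 0.25 to 0.77 on KO and 1.04 to 1.30 on WT arrays without overlap, with Tie1 and Emcn not well above background on any KO array. Fibroblast means ran from -2.66 to 0.20 on KO and from -1.53 to 1.51 on WT arrays, and erythroid means (5 of 6 markers) from 1.48 to 3.81 on KO and from 1.48 to 4.803 on WT arrays. Of the 8 measured macrophage markers 0 were positive in KO epithelium, with a median of -0.31. WT replicate 3, where division genes were high, was the lowest WT array for luminal, basal, fibroblast, endothelial, erythroid, macrophage and lymphoid markers. It was not the lowest for adipocyte markers (6 of 7), which averaged 0.41, 4.14 and 1.88 on WT replicates 1, 2 and 3. On KO replicates 1, 3 and 4 the adipocyte markers averaged 1.17, 2.29 and -0.49. The part of these markers in the result was not tested. Single channels were read after a further step (Aquantile) that gives all arrays the same distribution of average intensity. The Cy5 reference channel then differed by a median of 0.07 over the 28 genes between KO and WT epithelium and the Cy3 channel by 0.91. KO and WT arrays lie in different rows of each slide, so genotype and row cannot be told apart.

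**Figure D3:**
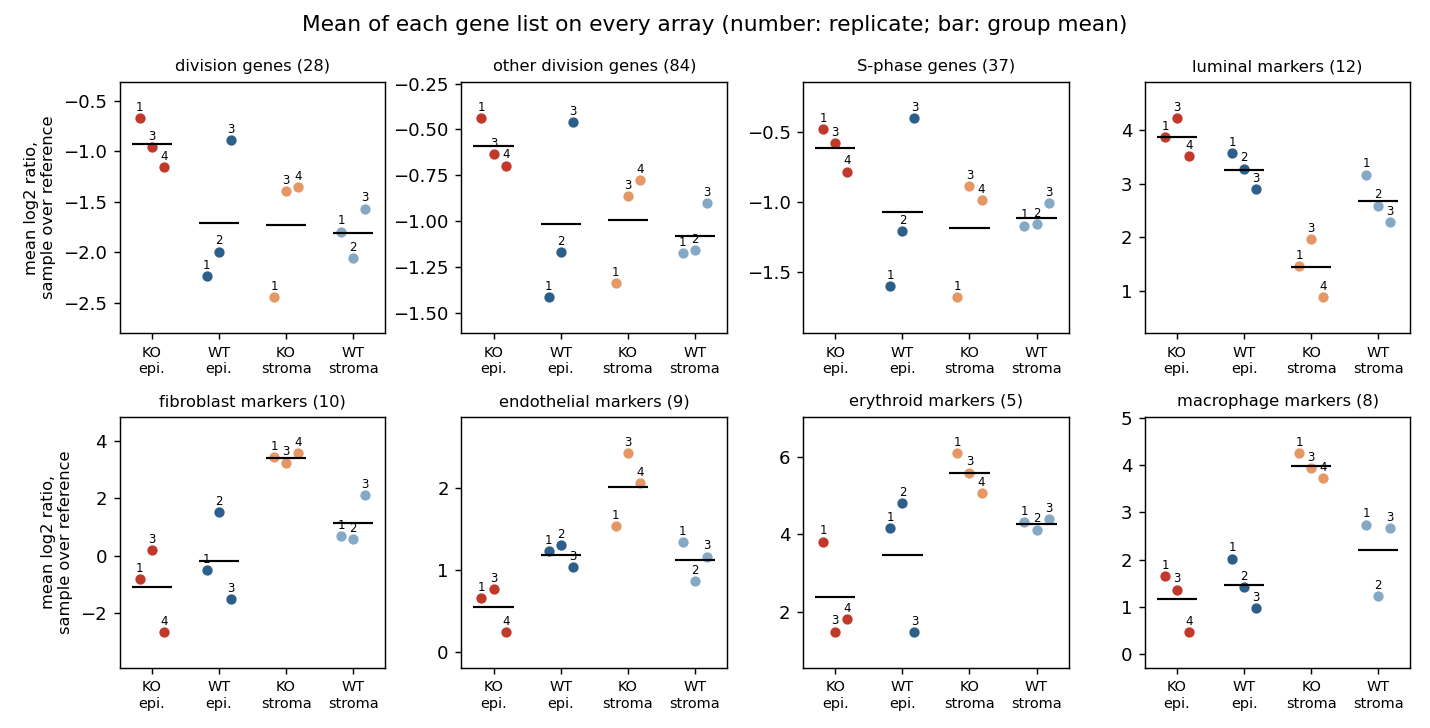
Mean log2 ratio (sample over reference, y axis, scale differs by panel) of the division genes, 2 other proliferation lists and 5 cell type marker lists on each array. Points are arrays with their replicate number, bars are group means, and groups run as KO and WT epithelium, then KO and WT stroma. WT epithelium replicate 3 sits with the KO arrays for all 3 proliferation lists, and KO stroma replicate 1 is the lowest stroma array in the same 3 panels.

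In stroma the same question gave no common direction. Of the 28 genes 18 were higher and 10 lower in KO stroma than in WT stroma, against 48.6% and 51.4% of all genes, with a median of 0.12, a range of -0.55 to 0.53, and a median of -0.01 over all genes. None was called, while 3.51% of all genes were called higher and 2.87% lower. None had an unadjusted p under 0.05, against 21.5% of all genes, and none had groups without overlap, against 13.1% of all genes in each direction. The balance of signs changed with the scaling, to 16 against 12 with Agilent's processed signals and to 13 against 15 with median centring (median -0.08). The sign also turned with a second probe for 3 of 9 genes, which gave 0.31 for Ccnb1, -0.01 for Birc5 and -0.08 for Mki67.

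The smallest p belonged to the 3 kinases. Plk1 had -1.64, -0.54 and -0.74 in KO stroma and -1.33, -1.82 and -1.35 in WT stroma. KO replicate 1 lay inside the WT range and the other KO arrays above it, with a difference of 0.53 (SE 0.32, adjusted p = 0.390, limma). Aurka had -2.27, -2.13 and -1.98 in KO stroma and -2.64, -2.76 and -2.26 in WT stroma. The groups met at -2.27 and -2.26, and the difference was 0.42 (SE 0.31, adjusted p = 0.492, limma). Bub1 had -1.87, -1.88 and -1.82 in KO stroma and -2.39, -2.47 and -1.78 in WT stroma. Only WT replicate 3 reached above the KO arrays, just 1 array of each group was above background, and the difference was 0.36 (SE 0.26, adjusted p = 0.487, limma). The 4 measured genes grouped here with anaphase regulators (Cdc20, Ube2c, Pttg1 and Cdca3) all had negative differences, between -0.55 (Ube2c) and -0.16 (Cdc20).

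KO stroma replicate 1 stood apart from its group. The mean over the 28 genes was -2.45 there, against -1.39 and -1.36 on the other KO stroma arrays and -1.80, -2.06 and -1.57 on the WT stroma arrays. It was the lowest of the 6 stroma arrays for 18 of 28 genes. Prc1 had -3.87 on it, Ccnb2 -3.56 and Cdc20 -3.51. It had the smallest share of probes above background of the 12 arrays (36.0%), and 20 of 28 division genes were above background on it, against 23 to 27 on the other stroma arrays. Without it the median difference was 0.50 with 23 of 28 positive. Without KO replicate 3 or 4 it was -0.02 or -0.03, and without WT replicate 2 it was 0.0030. Fibroblast markers averaged 3.43 on it, between the other KO stroma arrays (3.25 and 3.59).

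Of the other division genes 47 of 84 were positive in KO stroma, with a median of 0.07, and 1 was called higher, where 3.51% of all genes were. E2f1, which encodes a transcription factor of the G1 to S transition, had a mean of 1.09 (SD 0.17) over the KO stroma arrays and of -0.87 (SD 0.40) over the WT stroma arrays, n = 3 each, a rise of 1.965 (SE 0.36, adjusted p = 0.0159, limma). The S-phase list had 16 of 37 positive, a median of -0.04 and none called, with 0.50 for the chromatin assembly gene Chaf1a (adjusted p = 0.149) and -0.61 for the clamp loader gene Rfc4 (adjusted p = 0.325). Cell type markers moved in the same comparison, with all 10 fibroblast markers positive (median 2.40, 2 called), all 8 macrophage markers positive (median 1.97, 3 called) and 10 of 12 luminal markers negative (median -1.20, 4 called). Their part in the E2f1 value was not tested.

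The compartments of a tumour were then compared within the tumour. In KO tumours all 28 genes were lower in stroma than in epithelium on average, where 52.7% of all genes were lower and 47.3% higher. The median was -0.80, the range -1.62 to -0.07, and the median over all genes -0.03. By the test, 2 of 28 were called lower and 0 higher, against 9.85% of all genes lower and 10.2% higher, and 10 of 28 had an unadjusted p under 0.05, against 34.9%. By tumour, 16 of 28 were lower in stroma in all 3 KO tumours, against 29.2% of all genes, and none was higher in all 3, against 25.1%.

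The 2 genes called were Ect2 and Pttg1. Ect2 had -2.74, -1.20 and -1.70 in KO stroma and -0.30, 0.17 and -0.66 in KO epithelium. Every stroma array lay below every epithelium array, and Ect2 was 3.07-fold lower (log2 difference -1.62, SE 0.40, adjusted p = 0.0342, limma with tumour as a block). Pttg1 had -3.62, -3.32 and -3.002 in KO stroma and -1.66, -2.42 and -1.92 in KO epithelium. The groups did not overlap, and Pttg1 was 2.48-fold lower (-1.31, SE 0.35, adjusted p = 0.0414), or -0.53 with its second probe. Leaving out either array of any of the 3 KO tumours, which drops that tumour from the comparison, ended both calls, with adjusted p of 0.153 for Ect2 and 0.180 for Pttg1 without tumour 1. Leaving out WT tumour 1 ended the call of Pttg1 (adjusted p = 0.0663) and leaving out WT tumour 2 that of Ect2 (adjusted p = 0.0556), through the shared estimate of the spread. Other processing ended calls too. With median centring the adjusted p was 0.0777 for Ect2 and 0.107 for Pttg1, and with Agilent's processed signals it was 0.0531 for Ect2. For Pttg1 it was 0.0543 without a filter on dim probes, 0.0854 with the mean of its probes and 0.0525 with no tumour block. Of 9 genes with a second kept probe, Cdca8 turned its sign with it (0.07 in place of -0.95).

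Size differed between the tumours. The median of the 28 within-tumour differences was -1.81 in KO tumour 1, with 28 of 28 negative, -0.50 in KO tumour 3, with 23 negative, and -0.19 in KO tumour 4, with 20 negative. Without tumour 1 the median was -0.31 with 22 of 28 negative. The difference in tumour 1 sets the highest epithelium array for division genes to the lowest stroma array. Luminal markers were lower and fibroblast, macrophage and erythroid markers higher in KO stroma on all 3 arrays than on any KO epithelium array, as the plot of list means shows, and their part in the result was not tested.

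Among the other division genes 70 of 84 were negative in KO stroma, with a median of -0.42, 2 called higher and 5 lower, where 10.2% and 9.85% of all genes were. E2f1 rose by 1.55 (adjusted p = 0.0172, limma) and Lin52, a subunit of the MuvB core, by 0.78 (adjusted p = 0.0215). Anapc13, a subunit of the anaphase-promoting complex, had -0.76 (adjusted p = 0.0172), the condensin II gene Ncaph2 -0.74 (adjusted p = 0.0231), Smc3 -0.58 (adjusted p = 0.0407) and the checkpoint ATPase gene Trip13 -0.96 (adjusted p = 0.0439). In the S-phase list 33 of 37 were negative with a median of -0.60, and Rfc4 (-1.18, adjusted p = 0.0379) and the primase gene Prim1 (-1.42, adjusted p = 0.0432) were called lower.

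In WT tumours the difference between the compartments averaged near 0, over tumours of opposite sign. In luminal and Wnt1 transcripts the WT samples labelled stroma stood nearer to their epithelium than KO stroma did. Even so, 11 of 12 luminal markers were lower in WT stroma (median -0.74). The part of this was not tested. The median over genes was -0.10, with a range of -0.39 to 0.41 and 23 of 28 negative, against 47.2% of all genes negative and 52.8% positive. None was called, as for 0.00749% of all genes in the higher direction and 0 in the lower, and none had an unadjusted p under 0.05, against 8.81% of all genes. Cenpa had -0.54, -0.59 and -0.52 in WT stroma and -0.61, -0.997 and -0.86 in WT epithelium. It was the 1 gene of 28 higher in the stroma of each WT tumour, against 16.3% of all genes, and none was lower in each, against 14.9%. Its probe was above background on 1 of 3 stroma and 2 of 3 epithelium arrays, and the difference was 0.27 (SE 0.20, adjusted p = 0.768, limma). Racgap1 had -2.01, -3.42 and -2.15 in WT stroma and -2.52, -2.50 and -1.37 in WT epithelium. The tumours disagreed in sign, and the difference was -0.39 (SE 0.30, adjusted p = 0.784). Kif2c had -0.85, -1.25 and -1.01 in WT stroma and -1.95, -1.44 and -0.93 in WT epithelium. Its difference was 0.41 (SE 0.32, adjusted p = 0.794), positive in 2 of 3 tumours, with 1 of 3 arrays above background in each compartment. Second probes turned the sign of 4 of 9 genes, giving 0.13 for Ccnb1, 0.17 for Mad2l1, 0.05 for Birc5 and 0.41 for Cdca8.

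The median of WT tumour 3 was further from 0 than those of KO tumours 3 and 4. All 28 genes were higher in stroma in WT tumour 1 (median 0.41), 20 of 28 were lower in WT tumour 2 (median -0.08) and 27 of 28 were lower in WT tumour 3 (median -0.71). Without tumour 3 the median was 0.15 with 25 of 28 positive, and without tumour 1 it was -0.41. The other division genes had a median of -0.03 (36 of 84 positive) and the S-phase genes of -0.07 (15 of 37 positive), with none called. By the naming rule these were Cenph (0.52, adjusted p = 0.525), Cdc25b (0.33, adjusted p = 0.621), Tyms (-0.30, adjusted p = 0.760) and Cdc45 (0.22, adjusted p = 0.768).

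**Figure D4:**
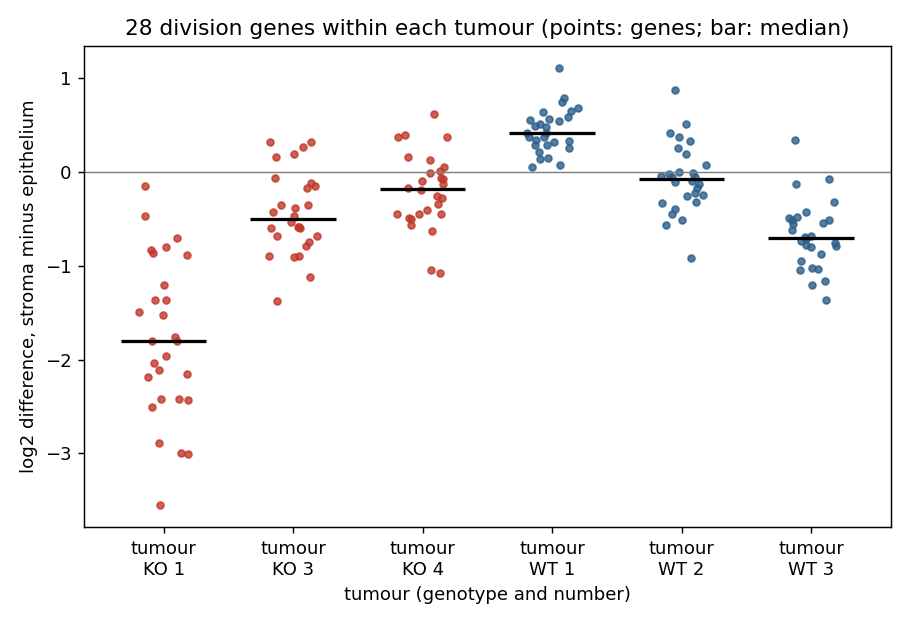
Log2 difference between stroma and epithelium of the same tumour (y axis, stroma minus epithelium) for the 28 division genes (points) in 3 KO and 3 WT tumours (x axis), with the median as a bar. KO tumour 1 has a median of -1.81 and WT tumour 1 one of 0.41, and the other 4 tumours lie between -0.71 and -0.08.

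The last comparison tested whether the KO effect differed between the compartments. For all 28 genes the difference of KO against WT was smaller in stroma than in epithelium, where 54.6% of all genes had a negative value and 45.4% a positive one, with a median of -0.71 against -0.06. With its second probe Racgap1 had 0.06 in place of -0.19. None was called, nor was any of the 13347 genes, and 2 of 28 had an unadjusted p under 0.05, against 18.1% of all genes. Pttg1 had -1.23 (SE 0.49, adjusted p = 0.255, limma), or -0.46 with its second probe, from a KO effect of -0.36 in stroma and 0.87 in epithelium. Ect2 had -1.35 (SE 0.57, adjusted p = 0.276), from -0.25 and 1.10. Ccnb1 had -1.03 (SE 0.49, adjusted p = 0.321), or -0.32 with its second probe, from -0.21 and 0.81. The median moved to -0.16, with 22 of 28 negative, without KO tumour 1, and to -0.45 without WT tumour 1. In the other lists 72 of 84 division genes and 34 of 37 S-phase genes were negative, with medians of -0.40 and -0.48. They were led by Cenph (-1.15, adjusted p = 0.118), Ncaph2 (-0.90, adjusted p = 0.130), Prim1 (-1.40, adjusted p = 0.243) and Rfc4 (-1.09, adjusted p = 0.249). Cell type markers moved in the same comparison. All 10 fibroblast markers (median 3.14) and all 8 macrophage markers (median 2.23) were positive, and 11 of 12 luminal markers (median -2.05) were negative. In luminal and Wnt1 transcripts the WT samples labelled stroma stood nearer to their epithelium than KO stroma did. The part of cell make-up in these values was not tested.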

How the data were processed

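Per the labels, Cy3 marked the tumour RNA and Cy5 the universal mouse reference on all 12 arrays, so dyes were not swapped. Per the file headers, the authors read the arrays as 2-colour scans with Agilent Feature Extraction 10.7.3.1 (build mm9). The deposited scanner files hold median spot and background intensity, processed intensity and log10 ratios (Cy5 over Cy3). A deposited table of log2 values comes with no account of how it was made. Its epithelial columns correlated at 0.895 to 0.924 with the scanner's reference over sample ratio across spots, with medians near 0, and served as an alternative after turning the sign. Its stromal columns went with no array and were not used.

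From these, normexp (offset 50) on median signals and loess within arrays were applied, with control spots at weight 0. Non-uniform spots were set missing and spots of a probe averaged. Probes were kept where Cy3 was well above background in 3 or more arrays, and the brightest probe stood for a gene. Symbols came from RefSeq (GRCm38.p6). limma 3.58.1 in R 4.3.3 (lmFit, eBayes, Benjamini-Hochberg over 13347 genes, threshold 0.05) compared KO with WT over 4 group means (8 residual degrees of freedom), and compartments with tumour as a block (4 residual degrees of freedom). Genotype and number in the titles give the pairing. Deviations from group means correlated at 0.09 to 0.45 within a tumour. Each value lay above those of the same epithelium array with the other stroma arrays of its genotype. Each slide holds 1 compartment, so slide and compartment cannot be told apart.

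The genes and lists were chosen with earlier results of these data known. Array values are given for the 12 genes with the smallest p in epithelium and, elsewhere, for called genes or the 3 with the smallest p. Called genes of the other lists, up to 6, or the 2 with the smallest p, are named. The fits were tested on simulated data with independent values per gene and array, the same spread in every group and no tumour effect. That setting does not check the fits for genes that move together, unequal spread or paired compartments.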

Additional observations from a re-analysis of the deposited data

How the results depend on the processing

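No result changed direction past the threshold. Under every alternative run the median over the 28 genes moved by less than 0.58, the pooled SD between replicates of the median on single arrays. That margin is wide. In KO against WT stroma and between the compartments of WT tumours the sign of the median turned within it. In KO against WT epithelium it ran from 0.50 (median centring) to 1.04 (array weights) with samples kept and from 0.53 to 1.26 with 1 array left out, and no gene was called. With the replicate number of the titles as a block, which does not pair KO with WT (correlations of -0.30 to 0.30), the median was 0.59 in epithelium and -0.01 in stroma, and no call changed. Without a filter on dim probes 36 of 40 genes were positive in epithelium (median 0.65), a count that takes in 6 genes not above background in any tumour sample, and with a filter on all 12 arrays 20 of 20 (0.87). In stroma the median ran from -0.03 to 0.50 with 1 array left out. Between compartments it ran from -1.13 to -0.31 in KO tumours, from -0.41 to 0.15 in WT tumours and from -1.05 to -0.16 for the difference of the KO effect.

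The count of genes called lower in KO stroma against KO epithelium was 2. It was 3 with Agilent's processed signals, where Ect2 was not among them (adjusted p = 0.0531), 0 with median centring, 1 without a filter, 1 with the mean of kept probes, 1 with no replicate block (tumour not paired) and 0 to 2 with 1 array left out, where fewer tumours remain. It was 10 with the Cy3 channel alone after the Aquantile step between arrays, an alternative chosen after seeing the data. Over all genes this comparison had 2673 calls, against 1529 with median centring and 1095 to 1217 without a KO tumour. The cause was not tested. No depth is known for arrays; 12 genes too dim to test limit the set.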

Other observations

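Outside the genes described above, the brakes of the cell cycle were read from a list of 14, all measured, and the genes named here were chosen after their values were seen. In epithelium 6 of 14 were positive for KO against WT, with a median of -0.07 and none called. At an unadjusted p under 0.05 (limma) there were 4 of 14, against 8.1% of all genes. In stroma 1 of 14 was called, lower, where 2.87% of all genes were: Rb1, which encodes the retinoblastoma protein that holds back E2F factors, fell by 2.41 on the log2 scale in KO stroma against WT stroma (SE 0.31, adjusted p = 0.00582, limma). Within KO tumours Rb1 was lower in stroma than in epithelium (-1.73, SE 0.24, adjusted p = 0.00545) and Cdkn2a, which encodes the inhibitors p16 and p19Arf, was higher (1.93, SE 0.27, adjusted p = 0.00625), in a comparison where 9.85% of all genes were called lower and 10.2% higher. In WT tumours the same values were 0.11 for Rb1 and 0.21 for Cdkn2a, neither called. The difference of the KO effect between compartments was -1.84 for Rb1 (adjusted p = 0.0795) and was not called. Wnt1 and the mean of the luminal markers were also lower in KO stroma than in WT stroma, and the part of cell make-up in these values was not tested.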
